A study of Mus musculus with 6 samples.

Results

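The epithelial solute carrier transporters are membrane proteins that move sugars, amino acids, ions, organic acids, vitamins and fatty acids across the epithelia of the kidney and other organs. They were taken here as every probe whose platform gene symbol is Slc3a1 or belongs to the Slc5, Slc6, Slc7, Slc12, Slc13, Slc17, Slc22, Slc23, Slc26, Slc27 or Slc34 families, which gave 205 of the 45281 probes on the array and 113 of the 19057 named genes. No probe carried the symbol Slc3a1 in the annotation used here, so that subunit was not analysed here. The rule also takes in Slc7a6os, a gene on the strand opposite Slc7a6 that encodes no transporter and is known for a part in the nuclear import of RNA polymerase. Several members are close copies of each other, such as Slc6a20a and Slc6a20b or Slc22a26, Slc22a28, Slc22a29 and Slc22a30, and signal shared between such copies was not tested.

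The samples were whole kidneys of mouse embryos at E13.5, of mixed C57BL/6 and 129S1/SvImJ background, hybridised to Illumina bead arrays. The controls had 3 arrays, as did the mutant kidneys, labelled YapCM-/-, in which Yap1, the transcriptional coactivator restrained by Hippo signalling, is deleted. CM is not spelled out in the labels; the published study is known for deleting the gene in cap mesenchyme, the nephron progenitors, with a Cre driven by Six2. With such a Cre, ureteric bud, stroma, vessels and blood would keep the gene; the genotype of the controls is not given beyond that word. The labels do not tie replicates to embryos or litters, so that p-values measure the spread between these arrays, which may in part be technical.

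Absorption is the work of differentiated nephron segments. The proximal tubule carries most sodium-coupled carriers on its brush border and organic ion carriers on its basolateral side, the loop of Henle and the distal tubule carry the chloride cotransporters of the Slc12 family, and many other members of these families supply amino acids, creatine, taurine or vitamins to almost every cell. At mid-gestation the kidney holds many progenitors and few differentiated tubules. In whole-organ RNA, fewer cells of a type and less RNA per cell cannot be told apart.

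Values are log2 signals as deposited, quantile normalized, with a median of 7.30 and an upper quartile of 7.97 on each array. A probe near 7.30 stands at the level of an average probe, where signal was not separated from background here, and a fold there can understate a change. Probe signals of different genes are not on 1 scale, so levels are set against the array median only. The arrays correlated at 0.983 to 0.993 over 15 pairs (across probes, which are not independent replicates). Yap1 fell from 9.73 ± 0.09 to 8.87 ± 0.14 (SD, n = 3 each), a log2 difference of -0.86 (limma adjusted p = 0.0102), with adjusted p = 0.0954 without control replicate 1, 0.0518 without control replicate 3 and 0.0722 with the background subtracted. Of the defining cell type markers, Six2, Cited1, Meox2 and Eya1 of the cap mesenchyme stood above the median on every control array. So did Lrp2 and Amn of the proximal tubule, Gata3 and Ret of the ureteric bud and Podxl of podocytes. On the same lists, the proximal tubule's Cubn, the ureteric bud's Calb1 and the podocyte's Nphs1 were at or under 7.25 on all 6 arrays. Umod of the loop of Henle was as well, while Slc12a1 of that list was above the median on every control array. Wnt11 of the ureteric bud was above the median on 1 control array. Dbh and Th, markers of sympathetic neurons, were at or under 7.15 on all 6, while Tubb3 of that list read from 7.27 to 7.45.

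Most transporter probes lay near or below the array median in the control kidney. Probes were tested if their mean over all 6 arrays lay in the upper 50% of the table, above 7.29, and 67 of the 205 probes and 50 of the 113 genes passed that filter. The control mean lay above the array median for 51 genes, and 39 of them were above it on all 3 control arrays. Only 12 genes were above the upper quartile on all 3 control arrays: Slc5a6, Slc6a6, Slc6a8, Slc6a9, Slc7a6, Slc7a6os, Slc12a2, Slc12a3, Slc22a5, Slc23a2, Slc27a3 and Slc27a6. Of these, Slc22a5 alone was on the proximal tubule list and Slc12a3 alone on the list of loop, distal and collecting duct transporters. The list of 38 proximal tubule transporters had probes for 36, of which 9 were above the median on all control arrays and 18 were tested. Of 21 broadly expressed transporters with probes, 17 were above the median on all control arrays and 8 of those above the upper quartile.

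**Figure D1:**
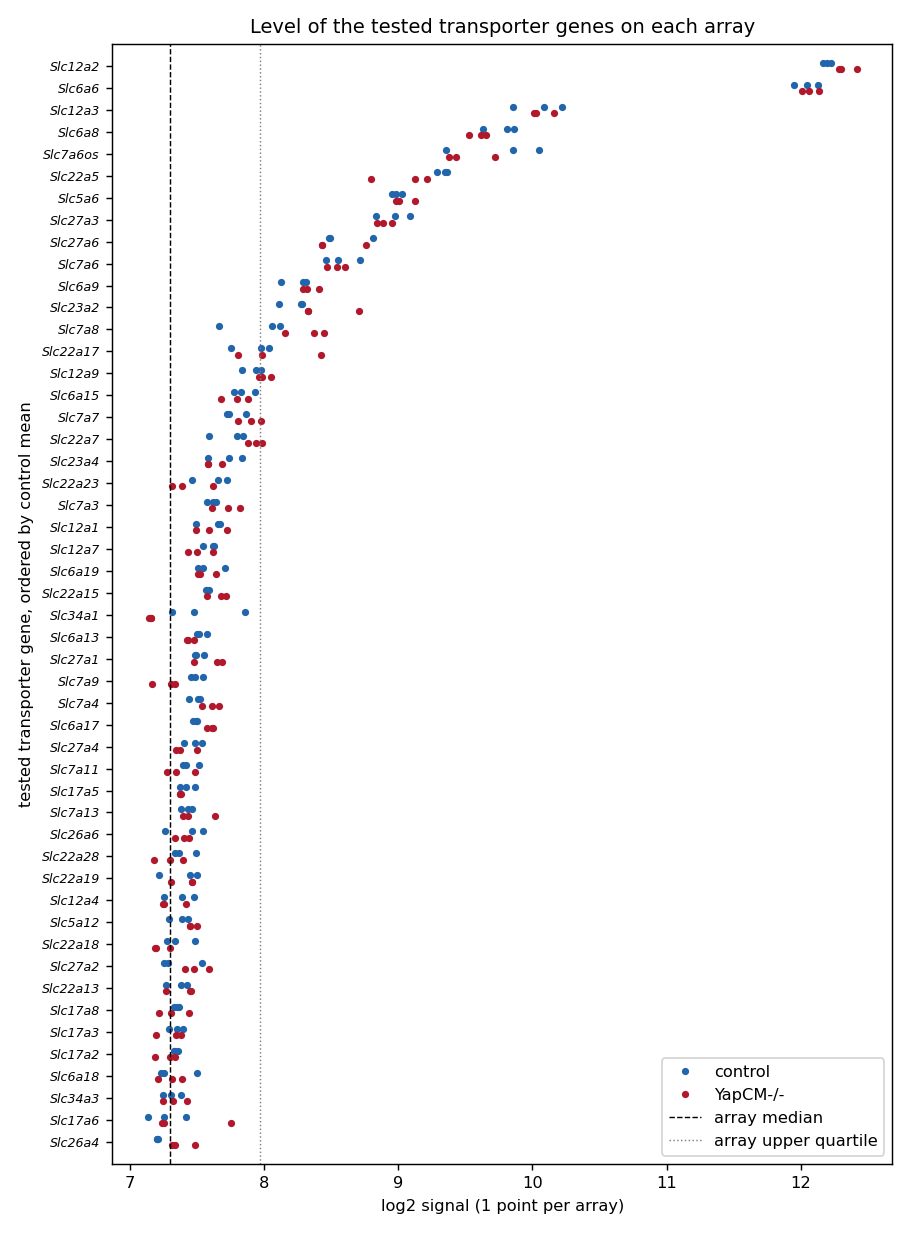
Log2 signal (horizontal axis) of the 50 tested transporter genes, 1 probe per gene, with 1 point for each of the 3 control arrays (blue) and 3 YapCM-/- arrays (red). The dashed and dotted lines are the array median of 7.30 and upper quartile of 7.97, and most genes lie between them; the order down the axis is that of probe signals, which are not comparable amounts of transcript.

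The 63 untested genes held many of the carriers that define a working proximal tubule. Their brightest probes lay between 6.83 and 7.44 on any array. Slc5a2, the main glucose carrier of the proximal tubule, read 7.10, 7.17 and 7.22 in control and 7.16, 7.01 and 7.18 in YapCM-/- kidneys, under the array median on all 6. Slc22a8, an organic anion carrier of the basolateral side, read 7.12, 7.11 and 7.02 in control and 7.13, 7.09 and 7.14 in YapCM-/- kidneys. Slc22a6, the related organic anion carrier, reached 7.36 on 1 control and 7.37 on 1 YapCM-/- array. All 5 genes of the Slc13 family, the carriers of sulfate and dicarboxylates, stayed untested, with control means from 7.10 to 7.19. Slc12a5 and the neuronal carriers Slc6a2, Slc6a3, Slc6a4 and Slc6a5 were untested as well. Just outside the filter lay Slc7a2 (mean 7.284 over the 6 arrays) and Slc5a1 (7.281), and just inside it Slc26a4 (7.288) and Slc22a18 (7.295).

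Between the genotypes, no transporter probe passed the threshold. Of the 67 tested transporter probes 0 were called at a limma adjusted p of 0.05, where 0.177% of all tested probes were called, and the smallest adjusted p was 0.271. At an unadjusted p under 0.05 stood 4 transporter probes, or 5.97%, beside 11.5% of all tested probes, 5.53% higher and 5.92% lower. With no filter 11 of the 205 did, beside 8.91% of all probes of the table, and 0 were called, beside 0.0839%. The groups did not overlap at 15 of the 67 tested transporter probes, 9 higher and 6 lower in YapCM-/- kidneys. That was 22.4%, beside 16.5% of all tested probes, 8.11% higher and 8.41% lower. The median log2 difference over the 50 tested genes was -0.014, with 24 positive and 26 negative, and that over all 11762 tested genes was 0.0039. The single differences ranged from -0.40 to 0.38.

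The spread between arrays bounded these differences on the deposited scale. The half-width of the 95% interval of the difference was 0.19 on the log2 scale at the median of the transporter probes and 0.41 at the widest. For 62 of the 67 probes, 92.5%, the interval lay within ±0.5, which is 1.41-fold, as it did for 91.2% of all tested probes. The 5 probes whose interval reached further belonged to Slc7a6os, Slc7a8, Slc12a1, Slc22a5 and Slc34a1. These bounds hold only for the signals as deposited. With the background subtracted, differences of dim probes were larger, and Slc34a1 stood at -1.11 (adjusted p = 0.295), Slc7a9 at -0.65 (adjusted p = 0.333) and Slc26a4 at 0.53 (adjusted p = 0.339). That background was not measured but set from each array's own low values, so the sizes at dim probes depend on that choice.

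By family, the tested genes spread around 0. The median log2 difference was 0.07 in Slc5 (2 tested genes of 13), -0.026 in Slc6 (8 of 19), 0.06 in Slc7 (9 of 15) and 0.0035 in Slc12 (6 of 8). It was -0.041 in Slc17 (5 of 9), 0.02 in Slc22 (9 of 21), 0.06 in Slc23 (2 of 4), 0.07 in Slc26 (2 of 10) and -0.06 in Slc27 (5 of 6). The Slc34 median of -0.19 came from 2 genes, Slc34a1 and Slc34a3, that differed from each other. By site of action, the median was -0.00029 over 18 tested proximal tubule transporters, 0.013 over 3 of the loop, distal tubule and collecting duct, 0.04 over 4 neuronal and vesicular carriers and 0.03 over 17 broadly expressed ones.

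**Figure D2:**
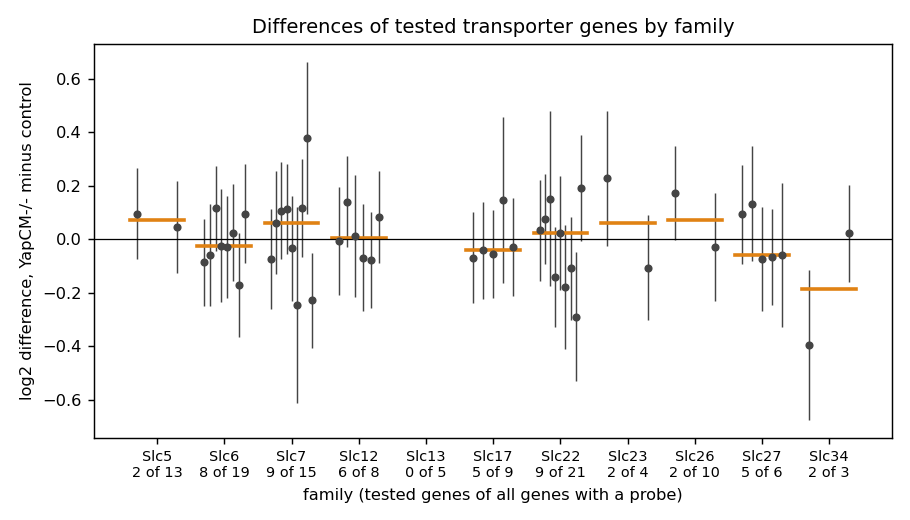
Log2 difference (YapCM-/- minus control, vertical axis) of each tested transporter gene, grouped by family, with 95% intervals from limma; orange bars are family medians. The 2 points farthest from 0 are Slc34a1 at -0.40 and Slc7a8 at 0.38, and Slc13 has no tested gene.

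Of the 50 tested transporter genes, 4 stood at an unadjusted p under 0.05, where 1583 of all 11762 tested genes did. All 4 are on the proximal tubule list, which was chosen with earlier results of these data known. Of the 4, 3 were lower and 1 higher in YapCM-/- kidneys. Slc34a1, the sodium-phosphate cotransporter of the brush border that sets phosphate reabsorption, read 7.47, 7.31 and 7.86 in control and 7.14, 7.16 and 7.15 in YapCM-/- kidneys. All 3 YapCM-/- values were below the array median, at the 29.6th percentile of their arrays on average, and the control values spread from just above the median upward. The log2 difference was -0.40 (SE 0.13, 95% interval -0.67 to -0.12, limma adjusted p = 0.271), and -1.11 with the background subtracted. Without control replicate 3, the highest array, it was -0.24. Slc34a1 passed the filter through its control arrays, as its YapCM-/- mean alone would not have. Its relative Slc34a3, also a phosphate carrier of the proximal tubule, read 7.38, 7.25 and 7.30 in control and 7.43, 7.32 and 7.25 in YapCM-/- kidneys, a log2 difference of 0.02 with overlapping groups (adjusted p = 0.950).

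Slc7a9 is the light subunit of the brush-border exchanger for cystine and basic amino acids, the partner of Slc3a1. It read 7.45, 7.48 and 7.55 in control and 7.16, 7.30 and 7.33 in YapCM-/- kidneys, all lower than any control. The log2 difference was -0.23 (SE 0.08, 95% interval -0.41 to -0.05, adjusted p = 0.321), and -0.65 with the background subtracted. The filter applies here too, since the YapCM-/- mean of 7.27 lay under it. Both further probes of Slc7a9 were too dim to be tested and differed by -0.06 and -0.0081.

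Slc22a5 takes up carnitine with sodium, in the proximal tubule and in many other tissues, and was above the upper quartile on all 3 control arrays. It read 9.34, 9.29 and 9.36 in control and 8.80, 9.21 and 9.12 in YapCM-/- kidneys. The groups did not overlap, and YapCM-/- replicate 1 was the lowest array. The log2 difference was -0.29 (SE 0.11, 95% interval -0.53 to -0.05, adjusted p = 0.355), and -0.16 without that replicate. The 2 dimmer probes stood at -0.14 and -0.15, the same sign, with overlapping groups. Its neighbours on the chromosome, Slc22a4 and Slc22a21, were untested, with no value above 7.33.

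Slc7a8 is a basolateral exchanger of neutral amino acids that works with the heavy subunit Slc3a2. It read 8.05, 7.66 and 8.12 in control and 8.45, 8.16 and 8.37 in YapCM-/- kidneys, all higher than any control. The log2 difference was 0.38 (SE 0.13, 95% interval 0.10 to 0.66, adjusted p = 0.302), and 0.24 without control replicate 2, the lowest array. A second probe read 7.70, 8.01 and 8.02 in control and 8.27, 7.43 and 7.82 in YapCM-/- kidneys, a difference of -0.07 (adjusted p = 0.930), so the probes of Slc7a8 did not move together. Slc3a2 itself stood at -0.04 (adjusted p = 0.924).

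**Figure D3:**
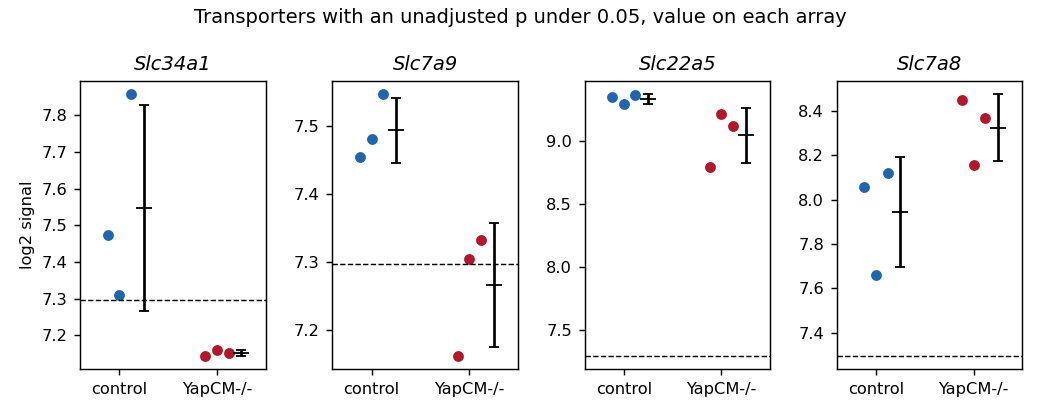
Log2 signal (vertical axis, own range in each panel) of Slc34a1, Slc7a9, Slc22a5 and Slc7a8 on each of the 3 control (blue) and 3 YapCM-/- (red) arrays, with mean and SD in black and the array median of 7.30 dashed. All 3 Slc34a1 values in YapCM-/- kidneys lie at 7.14 to 7.16, under the dashed line.

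The windows before the starts of Slc34a1 and Slc7a9 are shown because both are brush-border carriers with lower values in YapCM-/- kidneys, and proximal tubule carriers are known targets of the HNF1 and HNF4 factors, while Yap acts through TEAD factors. Each window is the 250 bases before the annotated start, from RefSeq on GRCm38.p6, with matches to the HNF1 half-site GTTAAT (or ATTAAC on the other strand) in capitals.
Slc34a1, chr13:55399398-55399647, plus strand: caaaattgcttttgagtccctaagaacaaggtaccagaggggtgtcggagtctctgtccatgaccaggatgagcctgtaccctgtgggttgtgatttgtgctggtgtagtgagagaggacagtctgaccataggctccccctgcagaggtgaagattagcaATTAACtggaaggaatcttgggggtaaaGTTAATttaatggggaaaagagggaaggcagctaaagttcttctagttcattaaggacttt
Slc7a9, chr7:35448842-35449091, plus strand: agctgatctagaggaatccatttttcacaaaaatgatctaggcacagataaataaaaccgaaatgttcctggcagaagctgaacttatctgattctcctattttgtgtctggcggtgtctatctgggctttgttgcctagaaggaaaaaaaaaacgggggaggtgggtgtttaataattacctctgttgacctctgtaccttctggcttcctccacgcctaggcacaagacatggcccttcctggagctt
Slc34a1 held 2 half-sites, beginning 89 and 61 bases before the start, and Slc7a9 held 0 in either of its 2 annotated windows. The TEAD core GGAATG (or CATTCC) and the HNF4 site CAAAGTCCA (or TGGACTTTG) had 0 matches in these windows and in those of Slc22a5 and Slc7a8. The half-site was in 6.43% of 32851 promoter windows, in 10% of 120 windows of 87 transporter genes and in 17.9% of 39 windows of 29 proximal tubule transporter genes. The TEAD core was in 12.6%, 17.5% and 20.5% of the same windows, and the HNF4 site in 0.384% of all windows and in 0 of the 120. No motif overlapped another in the windows printed, where only the half-site was found, and a match describes letters only.

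The Slc5 and Slc23 families carry sugars, vitamins and lactate. Slc5a6, the sodium-dependent carrier of biotin and pantothenate, read 8.95, 8.98 and 9.03 in control and from 8.98 to 9.12 in YapCM-/- kidneys, with groups that overlapped and a log2 difference of 0.05 (95% interval -0.12 to 0.22, adjusted p = 0.870). Slc5a12, a lactate carrier of the brush border, stood at 0.10 (adjusted p = 0.692) on a probe near the array median. Slc23a2, the vitamin C carrier of most tissues, read 8.11, 8.28 and 8.28 in control and 8.33, 8.71 and 8.33 in YapCM-/- kidneys. Its groups did not overlap, the difference was 0.23 (SE 0.11, adjusted p = 0.485), and without YapCM-/- replicate 2, the highest array, it was 0.10.

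In the Slc6 family, the bright members were those of general cell supply. Slc6a6, the taurine carrier, read 12.05, 11.95 and 12.13 in control and 12.06, 12.01 and 12.14 in YapCM-/- kidneys. The groups were interleaved, and the interval of the difference of 0.03 ran from -0.16 to 0.21 (adjusted p = 0.943). Slc6a8, the creatine carrier, read 9.81, 9.63 and 9.87 in control and 9.53, 9.65 and 9.62 in YapCM-/- kidneys, a difference of -0.17 (95% interval -0.36 to 0.02, adjusted p = 0.498) with 1 control array inside the YapCM-/- range. Slc6a19 and Slc6a18, neutral amino acid carriers of the brush border, stood at -0.03 (adjusted p = 0.937) and -0.02 (adjusted p = 0.956) on probes at 7.58 and 7.33 in control.

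In the Slc7 family, Slc7a7, the basolateral exchanger of basic and neutral amino acids, had 3 tested probes at 0.12, 0.09 and -0.025. Slc7a6os, which is no transporter, read 9.85, 10.05 and 9.35 in control and 9.43, 9.72 and 9.38 in YapCM-/- kidneys, with a 95% interval of -0.61 to 0.12 around -0.24 (adjusted p = 0.626). Its control arrays spanned the whole YapCM-/- range. The value was -0.095 without control replicate 2 and -0.44 without control replicate 3, where it had the smallest adjusted p of all transporter probes, 0.235.

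The cation-chloride cotransporters of the Slc12 family had some of the highest signals. Slc12a2, the sodium-potassium-chloride cotransporter of general cell volume control, read 12.20, 12.22 and 12.16 in control and 12.29, 12.42 and 12.30 in YapCM-/- kidneys. All 3 YapCM-/- arrays were above all 3 controls, by 0.14 (SE 0.08, 95% interval -0.03 to 0.31, adjusted p = 0.531). Its second tested probe stood at 0.19 (adjusted p = 0.492) with overlapping groups. Slc12a3, the thiazide-sensitive cotransporter of the distal convoluted tubule, read 10.08, 9.86 and 10.22 in control and 10.16, 10.01 and 10.03 in YapCM-/- kidneys, a difference of 0.013 (adjusted p = 0.977). That signal came from 1 of 5 probes, and the other 4 read between 6.94 and 7.46 on all arrays.

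Slc12a1, the furosemide-sensitive cotransporter of the thick ascending limb and an early marker of that segment, had 6 probes, 5 of them tested, all between 7.03 and 7.72. They disagreed in sign. The brightest stood at -0.0059 (adjusted p = 0.989) with interleaved groups. One probe read 7.26, 7.35 and 7.71 in control and 7.26, 7.10 and 7.22 in YapCM-/- kidneys, at -0.25 (adjusted p = 0.462), and another read 7.32, 7.34 and 7.31 in control and 7.42, 7.47 and 7.55 in YapCM-/- kidneys, at 0.15 (adjusted p = 0.483). The remaining tested probes were at -0.13 and 0.011, and the untested one at -0.14. Over all transporters, 12 genes had several tested probes, and their differences shared a sign in 6 and did not in the other 6.

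**Figure D4:**
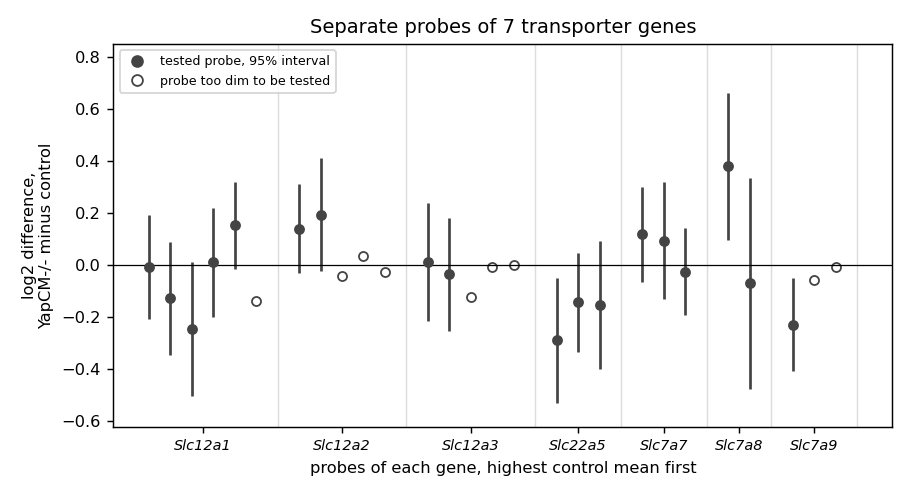
Log2 difference (YapCM-/- minus control, vertical axis) at each probe of 7 transporter genes, ordered by control mean within a gene; filled points are tested probes with 95% intervals, and open points are probes too dim to be tested. The 3 probes of Slc22a5 lie below 0, while those of Slc12a1 run from -0.25 to 0.15 and those of Slc7a8 lie at 0.38 and -0.07.

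In the vesicular, anion and fatty acid families most tested probes stayed under the upper quartile. Slc17a5, the lysosomal sialic acid exporter, was at -0.05 (adjusted p = 0.841), and Slc17a6, a vesicular glutamate carrier of neurons, at 0.15 (adjusted p = 0.751), where YapCM-/- replicate 3 at 7.75 stood above the other arrays at 7.13 to 7.42, and at -0.023 without it. Slc26a4, the chloride-bicarbonate exchanger pendrin, read 7.20 on each control array and 7.33, 7.31 and 7.48 in YapCM-/- kidneys, a difference of 0.17 (adjusted p = 0.439) on a probe that passed the filter through the YapCM-/- arrays, and of 0.53 with the background subtracted. Slc26a6, an anion exchanger of the brush border, was at -0.03 (adjusted p = 0.937). Slc27a3, an acyl-CoA synthetase of the fatty acid carrier family, was at -0.07 (adjusted p = 0.815) from a control mean of 8.97, and Slc27a2, its relative of the proximal tubule, at 0.13 (adjusted p = 0.656) with a second probe at -0.012. Slc22a7, an organic anion carrier, read 7.80, 7.59 and 7.84 in control and 7.94, 7.98 and 7.88 in YapCM-/- kidneys, a difference of 0.19 (adjusted p = 0.450) with groups that did not overlap. Of the 50 tested genes, 6 had 1 group mean under the filter: Slc7a9, Slc17a2, Slc22a18 and Slc34a1 in YapCM-/- and Slc17a6 and Slc26a4 in control.

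Among scaffolds, trafficking partners and regulators of these carriers, Pdzk1 alone passed the threshold in this fit. The list of 30 had probes for 24 genes, and 19 were tested. With 1 probe per gene, 1 of the 19 fell and 0 rose at an adjusted p of 0.05, where 0.264% of all tested genes were called. At an unadjusted p under 0.05 stood 7, with 6 lower and 1 higher, where 1583 of all 11762 tested genes did, and the list had a median of -0.08. Pdzk1, the brush-border scaffold that binds Slc34a1 and other carriers, read 8.92, 8.80 and 9.32 in control and 7.93, 7.86 and 8.20 in YapCM-/- kidneys, a fall of 1.02 on the log2 scale or 2.03-fold lower (SE 0.14, adjusted p = 0.0313). Its 2 further probes were at -1.03 (adjusted p = 0.0791) and -0.64 (adjusted p = 0.0603). It no longer passed when control replicate 1 was left out (adjusted p = 0.129), nor without control replicate 3 (0.07), YapCM-/- replicate 1 (0.0962) or YapCM-/- replicate 2 (0.0803), nor with the background subtracted (0.0793).

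Fxyd2, the gamma subunit of the sodium pump that drives sodium-coupled uptake, was at -0.78 (SE 0.15, adjusted p = 0.0943), with a second probe at -0.49 (adjusted p = 0.10). Hnf4a, a nuclear receptor that controls proximal tubule genes, read 8.55, 8.63 and 8.95 in control and 7.87, 8.46 and 7.93 in YapCM-/- kidneys, a difference of -0.62 (SE 0.16, adjusted p = 0.196). Cltrn, or collectrin, which brings Slc6a19 to the membrane, read 7.84, 7.91 and 8.15 in control and 7.49, 7.46 and 7.68 in YapCM-/- kidneys, a difference of -0.43 (SE 0.10, adjusted p = 0.192). None of the 3 passed the threshold in this fit. At each of them the groups did not overlap, as at 18% of all tested genes, and the 3 were named for their small p. Fxyd2 passed it in 2 other settings, with adjusted p = 0.038 with trend and robust options and 0.0348 with the replicate number as a block. Slc9a3r1, a further brush-border scaffold, was at -0.28 (adjusted p = 0.283), and Wnk4, a kinase that controls the Slc12 cotransporters, at 0.21 (adjusted p = 0.426). A second Wnk4 probe stood at 0.05 (adjusted p = 0.872) with overlapping groups. Slc9a3r1 and Wnk4 were named after their values were seen.

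Marker list means of several kidney cell types did not overlap between the groups, and the means were not tested. The mean log2 signal of Lrp2, Amn and Cubn was 7.97 to 8.23 on the control arrays and 7.38 to 7.61 on the YapCM-/- arrays. At none of the 3 genes did the groups overlap, where they did not at 18% of all tested genes. Lrp2, the endocytic receptor megalin, was at -0.91 (adjusted p = 0.0344, or 0.0523 with no filter on dim probes), and Amn at -0.66 (adjusted p = 0.0935), while Cubn was untested at 7.19 or less. The mean of the 4 cap mesenchyme markers was 8.97 to 9.05 on control and 8.46 to 8.60 on YapCM-/- arrays. Among them, Meox2 fell by 1.09 (adjusted p = 0.00175) and Cited1 fell by 0.72 (adjusted p = 0.00662). Six2 was at -0.36 (adjusted p = 0.193) and Eya1 at 0.34 (adjusted p = 0.242). The mean of the 2 podocyte markers with probes was 8.22 to 8.37 on control and 7.98 to 8.09 on YapCM-/- arrays. Of these, Podxl was at -0.41 (adjusted p = 0.230) and Nphs1 was untested at 7.25 or less. The mean of the 4 ureteric bud markers went the other way, from 8.47 to 8.56 on control to 8.76 to 8.83 on YapCM-/- arrays. Of these only Ret, which rose by 0.83 (adjusted p = 0.0147), had groups that did not overlap. Gata3 was at 0.15 (adjusted p = 0.630) and Wnt11 at 0.06 (adjusted p = 0.856), and Calb1 was untested. The means of the loop of Henle, stroma, endothelium, erythroid, macrophage and sympathetic lists overlapped between the groups. Control replicate 3 held the highest value of Slc34a1, Slc7a9, Slc22a5, Pdzk1, Fxyd2, Hnf4a, Cltrn, Lrp2 and Amn. The part of any of these cell types or of that array in the lower values of Slc34a1, Slc7a9 and Slc22a5 was not tested. Those 3 were named for their low p, as was Slc7a8, which was higher at 0.38 (adjusted p = 0.302). Of the 18 tested proximal tubule transporters 9 were higher and 9 lower.

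**Figure D5:**
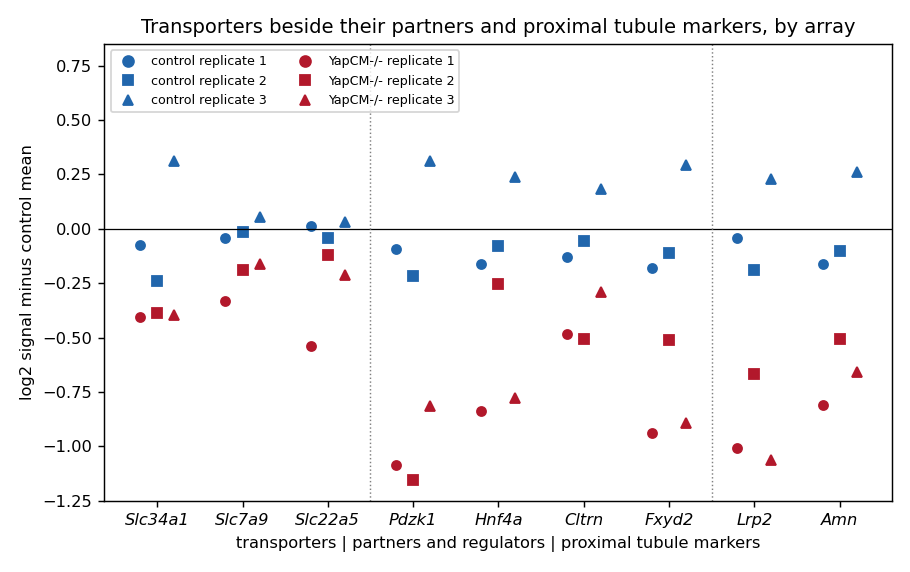
Log2 signal minus the control mean of each gene (vertical axis) on each array for 3 transporters, 4 partners or regulators and 2 proximal tubule markers; blue and red are control and YapCM-/-, and the marker shape is the replicate number. Control replicate 3 (blue triangles) is the highest array for each of the 9 genes. At each gene the 3 YapCM-/- arrays lie below the 3 control arrays, and differences are not comparable in size between genes at different signal levels. The 3 transporters and 4 partners were picked for a low p, so their separate groups are no further evidence. The 3 transporters were picked for being lower as well. Slc7a8, also of low p but higher in YapCM-/- kidneys at 0.38, is not drawn. The groups did not overlap at 18% of all tested genes, and Cubn, an untested marker, is not drawn.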

How the data were processed

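Whole-kidney RNA was copied into biotin-labelled cRNA for Illumina bead arrays, as the labels' protocols state. The values used are the log2 signals of the deposited value table, 1 column for each of 6 arrays; their sorted values differed by at most 0.00608, as after quantile normalization by the authors, and no source used here names the software or background step. A second deposited table was not used, because its 12 columns of per-sample values carry names that match no label.

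Gene names came from the platform annotation, which may be outdated. All 205 transporter probes matched a RefSeq gene of GRCm38.p6, and 0 symbols changed. The 22640 probes in the upper 50% by mean over all arrays were fitted in R 4.3.3 with limma 3.58.1 (lmFit, then eBayes; two-sided; no covariate), with Benjamini-Hochberg adjustment over all of them and a threshold of 0.05; every adjusted p is from such a fit. A gene with several tested probes was represented by its brightest. The fit was tested on simulated data. Named were Yap1, genes at an unadjusted p under 0.05, the brightest and most different tested gene of each family and the 4 partners with the smallest p; other genes were named after their values were seen. Members and lists were chosen with earlier results of these data known. Precision is limited by having 3 arrays per group. Other settings changed the filter, eBayes options, array weights, replicate block, background, normalization, threshold and choice of probe, and left out each array. The background setting took the 1st percentile of each array off the deposited values and added 16 before the log2 step. It used no measured background, and the size of a difference at a dim probe depends on that offset.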

Additional observations from a re-analysis of the deposited data

How the results depend on the processing

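No transporter probe was called at an adjusted p of 0.05 under any of the other settings run, nor at 0.10 in the same fit. The smallest adjusted p of a transporter probe ranged from 0.0938 (Slc7a8, with the replicate number as a block) to 0.471. The transporter probes at an unadjusted p under 0.05 numbered 11 of 205 with no filter and 2 of 17 among the 25% brightest probes. They numbered 7 with trend and robust options, array weights, background subtracted or replicate block, and 3 to 7 with 1 array left out. Their share was 5.37% with no filter, beside 8.91% of all probes, and 11.76% among the 25% brightest, beside 13.68%. The 7 were 10.45%, beside 11.04% of all tested probes with trend and robust options and 11.62% with array weights. The share of all tested probes was 13.3% with the replicate block and 10.03% with the background subtracted. With 1 array left out, the transporter share was the lower, except 10.45% beside 8.45% without control replicate 2. The median difference of the transporter genes was 0.019 and that of the proximal tubule transporters 0.045 among the 25% brightest probes. With 1 array left out these medians ran from -0.023 to 0.024 and from -0.027 to 0.043. The 40 calls over all probes became 26 among the 25% brightest, 64 with trend and robust options, 138 with the replicate block, 10 with the background subtracted, 87 at a threshold of 0.10 and 6 to 27 with 1 array left out. The correlations of deviations between control and YapCM-/- arrays of the same number were 0.13, 0.14 and -0.021. Those between arrays of different numbers ran from -0.30 to 0.23. With 3 arrays per group these values cannot decide whether arrays of the same number were paired. The main fit used no pairing. Differences changed sign with 1 array left out at Slc6a6, from -0.022 to 0.069, and Slc26a6, from -0.11 to 0.031, both near 0, and at Slc17a6, from -0.023 without YapCM-/- replicate 3 to 0.23. Without control replicate 3, Slc27a3 was at -0.0098, Slc27a2 at 0.22, Slc5a12 at 0.055 and Slc17a5 at -0.024. Slc27a3 was at -0.14 without control replicate 2, Slc27a2 at 0.081 without control replicate 1, and Slc5a6 at 0.0035 without YapCM-/- replicate 1. With the background subtracted, Slc7a8 was at 0.63, Slc27a2 and Slc17a6 at 0.37 and 0.38, Slc5a12 at 0.26 and Slc17a5 at -0.14. The cause was not tested. Dim probes limit what can be said of most transporters.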
